A study of Sus scrofa with 3 samples.

Results

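The deiodinases and the thyroid hormone receptors were followed in visceral adipose tissue of miniature pigs. Of 5 genes of the system (DIO1, DIO2, DIO3, THRA and THRB), 4 were found under these symbols among 22826 mRNA genes, which are part of 34570 genes of all types. THRB was not found under that symbol, so no value is given for it by name. The deposited values hold an mRNA gene named C-ERBA-B1, and c-erbA beta is an older name of thyroid hormone receptor beta. The gene tables at hand do not pair this name with THRB, so whether C-ERBA-B1 is THRB was not settled. Its values are given under its deposited name, and it was not counted as a member. The genes were selected on the UQRPKM values of these same libraries, in which DIO1 and DIO3 had already been seen to differ, so no test was run on them.

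Thyroid hormone acts inside the cell. Thyroxine is the main product of the thyroid gland and binds the receptors weakly, whereas triiodothyronine is the active form. DIO2 removes an outer-ring iodine from thyroxine and makes triiodothyronine in the tissue, DIO3 removes an inner-ring iodine and inactivates both hormones, and DIO1 can do either and is abundant in liver, kidney and thyroid. The deiodinases are selenoproteins, and their mRNA needs a dedicated machinery to read a stop codon as selenocysteine. THRA and THRB are nuclear receptors that bind target genes together with a retinoid X receptor, recruiting corepressors without hormone and coactivators with it. In fat, the hormone is known for its effects on lipid synthesis, lipid breakdown and heat production.

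The tissue was retroperitoneal fat of Chinese Wuzhishan miniature pigs, all male, 6 to 7 months old when they entered the study and kept for 12 weeks on a diet rich in fat and cholesterol (HFC). Intact males (IM) had a skin incision only, castrated males (CM) received no hormone, and castrated males with testosterone replacement (CMT) were injected each week with 10 mg/kg of testosterone propionate. Equal amounts of RNA from 4 to 6 pigs by the labels, or 4 by the study's methods, were combined for every group, so each group is 1 library, and the spread between pigs of a group is not known. Every 95% interval covers counting error only, and amplified reads do not each stand for a molecule of their own.

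Expression was deposited as UQRPKM, in which the reads on a gene are divided by the gene length and by the upper quartile of reads per gene in the library. This unit is per length and allows levels of different genes to be set side by side. Reads behind each value were recovered from the values, as described under processing, and came to 14844063 on the mRNA genes of IM, 13582288 of CM and 13449107 of CMT. A gene listed at 0 may still be expressed, since the list at 0 in every library also held 6 of 66 ribosomal protein genes. Markers of fat cells were high throughout, and adiponectin (ADIPOQ) stood at 74928 UQRPKM in IM against 69193 in CM and 63873 in CMT. Markers of other tissues set the CM and CMT libraries apart. Of 15 liver markers, 14 exceeded both other libraries at least 10-fold in CM. Of 12 skeletal muscle markers, 10 did so in CMT.

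THRA and C-ERBA-B1 were far more abundant than the deiodinases in all 3 libraries. THRA lay above 95.5% of the mRNA genes detected in IM, 94.6% in CM and 95.4% in CMT. C-ERBA-B1 lay above 81.4%, 81.4% and 84.1%, respectively. DIO2 and DIO3 lay above between 15.1% and 33.5% of the detected genes. All deiodinase reads together came to 59 in IM against 35 in CM and 71 in CMT, whereas THRA alone had 2253, 1739 and 2010. The values of the deiodinases therefore carry wide counting intervals and those of THRA and C-ERBA-B1 narrow ones.

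**Figure D1:**
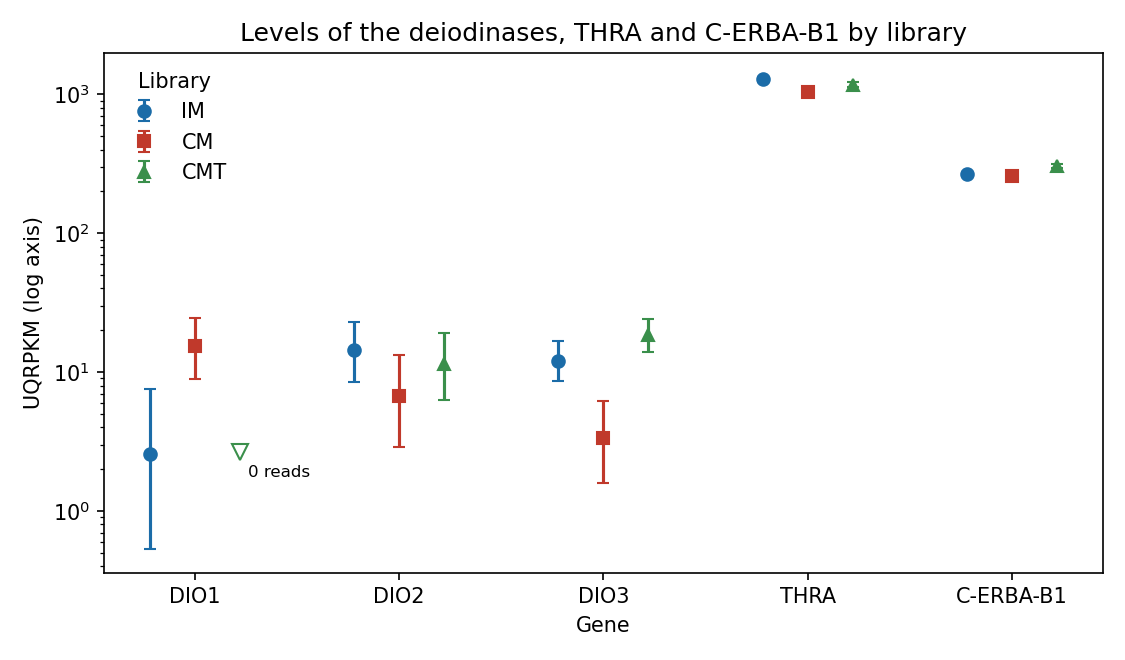
Level of each gene in UQRPKM (log axis) in the IM, CM and CMT libraries, with exact Poisson 95% intervals of the recovered reads as bars. The open triangle marks DIO1 in CMT, listed at 0, at the level of 3 reads (2.64 UQRPKM). THRA and C-ERBA-B1 sit well above the deiodinases, and DIO3 is lowest in CM while DIO1 is highest there.

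DIO3, the hormone-inactivating enzyme, had the most reads of the deiodinases. It stood at 12.1 UQRPKM in IM (38 reads, 95% interval 8.56 to 16.6). In CM it stood at 3.34 UQRPKM (10 reads, 1.60 to 6.14), and in CMT at 18.5 UQRPKM (57 reads, 14.0 to 24.0). The CM library was the low one, and its interval met that of neither other library. DIO3 was 3.62-fold lower in CM than in IM, and the log2 ratio was -1.86 (95% interval -3.03 to -0.82). In CMT it was 5.54-fold higher than in CM, with a log2 ratio of 2.47 (1.49 to 3.61). CMT exceeded IM 1.53-fold, and the interval of that log2 ratio, 0.61 (-0.003 to 1.25), just included 0. These comparisons share libraries and are not independent of each other.

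DIO3 was also the deiodinase that the study measured by qRT-PCR, which was not analysed here. The primers that the study lists for DIO3 were not aligned to a transcript here. Both are 20 bases long, written 5′ to 3′ in lower case with no part marked.
DIO3 forward: ggggtgagcctgaaactgaa
DIO3 reverse: ttcgtgagcctgcttgaaga

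DIO2, the activating enzyme, was also lowest in CM but rested on fewer reads than DIO3. It had 14.4 UQRPKM in IM (18 reads, 95% interval 8.53 to 22.8), 6.71 in CM (8 reads, 2.90 to 13.2) and 11.4 in CMT (14 reads, 6.25 to 19.2). The interval of CM overlapped those of IM and CMT. The log2 ratio was -1.10 (95% interval -2.51 to 0.17) for CM over IM and 0.77 (-0.59 to 2.23) for CMT over CM. A difference of DIO2 between these libraries was therefore not detectable at this depth. CMT and IM differed by a log2 ratio of -0.33, with an interval from -1.45 to 0.76.

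DIO1, unlike DIO3, was highest in CM. It was represented by 3 reads in IM (2.58 UQRPKM, 95% interval 0.53 to 7.55), 17 reads in CM (15.4 UQRPKM, 8.95 to 24.6) and 0 reads in CMT. A floor of 3 reads was used for the count of 0, which is 2.64 UQRPKM in CMT, while the exact Poisson 95% interval of that count reached 3.24 UQRPKM. CM was the high library, and IM and CMT were both at or below the level of 3 reads. The ratio of CM to IM was 5.95, with a 95% interval from 1.72 to 31.7. Against the floor of 3 reads, CMT was 5.83-fold lower than CM. Without that floor, the exact 95% bound from the 17 reads of CM and 0 reads of CMT was 4.24-fold lower in CMT. No fold is given for CMT versus IM.

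Liver, where DIO1 is abundant, was also the tissue whose markers were high in CM. The summed level of the 15 liver markers was 11236 UQRPKM in CM, against 2570 in IM and 1753 in CMT, of which APOA1 alone gave 2539 in IM and 1714 in CMT. Albumin (ALB) had 10 reads in IM against 10612 in CM and 15 in CMT. In IM, 7 of the 15 markers were at 0, and in CMT also 7, among them SERPINA1, APOA2 and APOH in both. CYP7A1, the rate-limiting enzyme of bile acid synthesis in liver, had 22, 50 and 9 reads. Kidney is another site of DIO1, and 9 of 11 kidney markers were listed at 0 in every library. Thyroglobulin (TG), a marker of the thyroid gland, had 0, 1 and 3 reads in IM, CM and CMT. The part of liver RNA in the DIO1 value was not tested, and fewer cells of a type cannot be told apart from less RNA per cell in these pooled libraries.

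**Figure D2:**
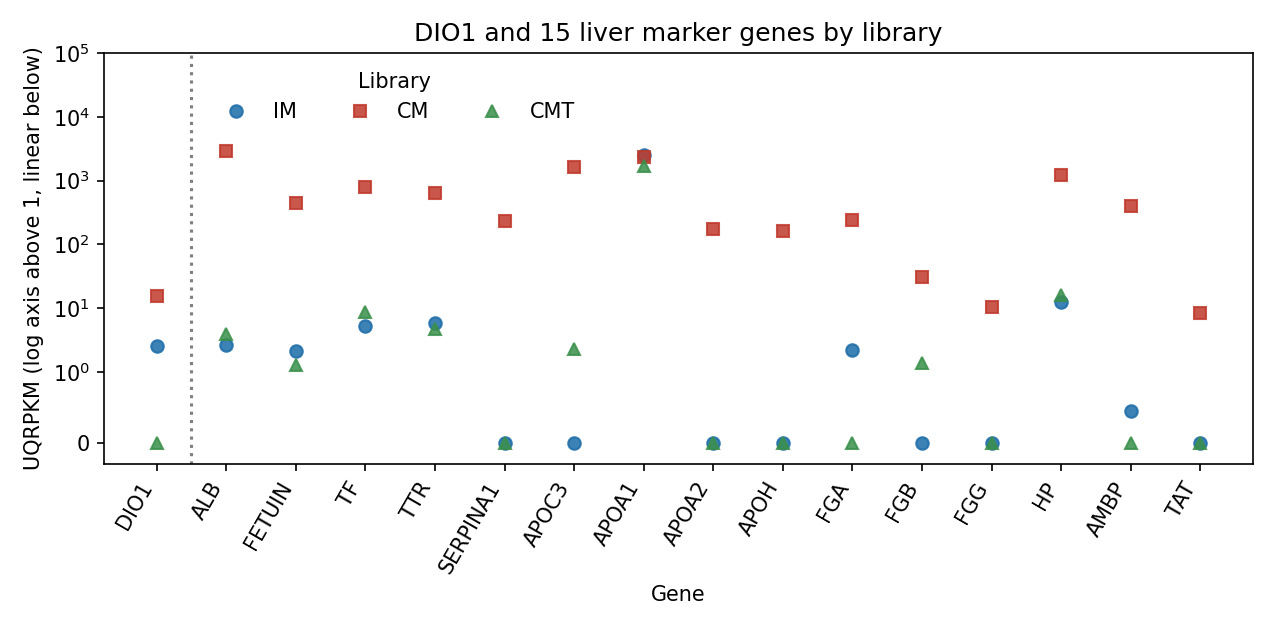
UQRPKM of DIO1 and of 15 liver marker genes in the 3 libraries, on an axis that is logarithmic above 1 and linear below, with 1 point per library. DIO1 and 14 of the 15 markers are highest in CM, and APOA1 is at a similar level in all 3 libraries.

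THRA, the receptor alpha gene, had 1285 UQRPKM in IM (2253 reads, 95% interval 1232 to 1339), 1040 in CM (1739 reads, 992 to 1091) and 1170 in CMT (2010 reads, 1119 to 1222). The order of the libraries was the same as for DIO2, with CM lowest and IM highest, but the differences were small. THRA was 1.23-fold lower in CM than in IM, with a log2 ratio of -0.30 (95% interval -0.40 to -0.21). CMT versus CM gave 0.17 (0.08 to 0.26), and CMT versus IM gave -0.14 (-0.22 to -0.05). The intervals leave out 0 because of the many reads, and they say nothing of the spread between pigs. In the RefSeq gene table of Sscrofa 11.1, the span of THRA overlaps that of NR1D1, a clock gene of the nuclear receptor family. Whether reads were counted by strand is not given in the sources used here, so reads from that overlap cannot be told apart, and NR1D1 was not analysed here.

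C-ERBA-B1 showed the smallest difference between CM and IM of the 5 genes measured here. Its levels were 266 UQRPKM in IM (2607 reads), 259 in CM (2416 reads) and 305 in CMT (2927 reads). For CM over IM the log2 ratio was -0.04 (95% interval -0.12 to 0.04). CMT was the high library, with log2 ratios of 0.24 (0.16 to 0.32) against CM and 0.20 (0.12 to 0.27) against IM. Per length, THRA exceeded C-ERBA-B1 by 4.83-fold in IM (95% interval 4.56 to 5.11), 4.02-fold in CM (3.78 to 4.28) and 3.83-fold in CMT (3.62 to 4.06).

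**Figure D3:**
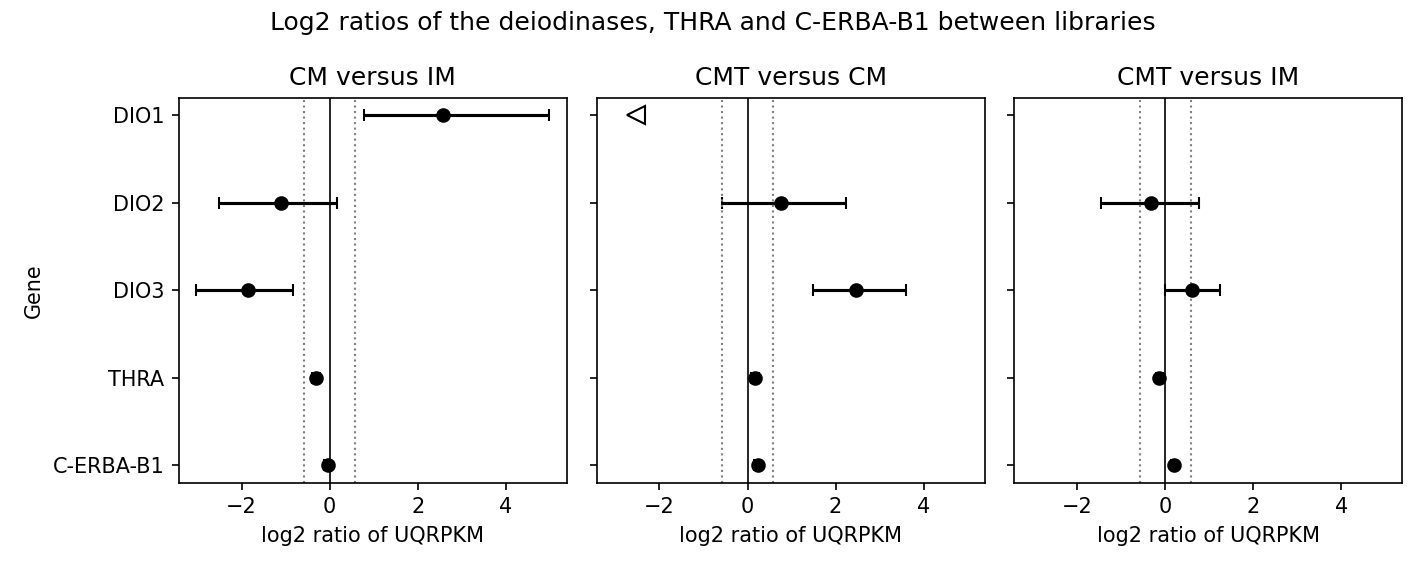
Log2 ratios of UQRPKM in the 3 comparisons, with exact Clopper-Pearson 95% intervals of the recovered reads as bars and dotted lines at a 1.5-fold difference. The arrowhead marks the ratio of DIO1 in CMT versus CM at the level of 3 reads, and DIO1 in CMT versus IM is not drawn. DIO1 and DIO3 lie on opposite sides of 0 in CM versus IM, while THRA and C-ERBA-B1 lie close to 0 throughout.

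A gene was called at a fold of 1.5 or more and a minimum of 1 UQRPKM in each library compared, the study's limits without its test. In CM versus IM, 18.8% of 14123 mRNA genes were called, and all 3 deiodinases were among them while THRA was not. With the further requirement that the counting interval leave out a ratio of 1, 11.7% of the genes remained, with DIO1 and DIO3 among them and DIO2 not. In CMT versus CM, 19.5% of 14098 genes were called, and DIO2 and DIO3 were among them, while DIO1 could not be called because it was listed at 0 in CMT. Of the members called there, only DIO3 also met the interval requirement, and 12.4% of all genes were called with it. The intervals of DIO1 and THRA left out a ratio of 1 as well, but neither gene was called. In CMT versus IM, 20.7% of 14151 genes were called, 42.4% of them higher in CMT. Scaling by total recovered mRNA reads in place of the upper quartile turned that share to 56.8%. DIO3 was the only member called in CMT versus IM, and it did not meet the interval requirement, which 13.5% of the genes met. The members were chosen with these values known, so nothing is read from their share.

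The balance of inactivating to activating enzyme was taken as a ratio within each library. Whether that ratio differed between libraries was not tested. DIO3 per length was 0.84 times DIO2 in IM (95% interval 0.47 to 1.56), 0.50 times in CM (0.18 to 1.45) and 1.62 times in CMT (0.89 to 3.15). Each interval included 1, so the order of DIO2 and DIO3 was not distinguishable in any library. DIO1 was below both in IM, at 0.18 times DIO2 (0.03 to 0.61) and 0.21 times DIO3 (0.04 to 0.67). In CM it exceeded DIO3 by 4.60-fold (1.99 to 11.2), while its ratio to DIO2 of 2.29 had an interval from 0.94 to 6.13. Of the summed deiodinase level, DIO1 made up 8.89% in IM and 60.4% in CM, whereas DIO3 made up 41.6% and 13.1%. In CMT, DIO3 made up 61.8% and DIO2 the other 38.2%. The summed level stood at 29.1 UQRPKM in IM against 25.4 in CM and 29.9 in CMT. With DIO1 left out, the sum of DIO2 and DIO3 stood at 26.5 UQRPKM in IM against 10.1 in CM and 29.9 in CMT.

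DIO3 lies at the end of an imprinted gene domain of mammals that also holds DLK1, RTL1 and the noncoding MEG3. DLK1 and RTL1 were listed at 0 in every library. MEG3, deposited as a miscRNA, had 18.0 UQRPKM in IM (37 reads), 25.5 in CM (50 reads) and 11.4 in CMT (23 reads). Its highest library was thus the lowest one of DIO3. The log2 ratio of MEG3 was 0.50 in CM versus IM (95% interval -0.14 to 1.16) and -1.16 in CMT versus CM (-1.94 to -0.42).

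With 3 libraries, likeness of pattern rests on 2 ratios only, and both share the IM library. The genes nearest to DIO3 in log2 ratio to IM, among 11286 mRNA genes with at least its 105 reads, were CLDN4, LOC100512841, LOC100155126, LOC100514211 and NANP. CLDN4, a tight junction claudin, had 34.4 UQRPKM in IM against 9.13 in CM and 45.1 in CMT, at a distance of 0.23. Nearest to DIO2 were LOC102167038, TMEM246, LIMD1, SUSD4 and ANKEF1, at distances from 0.02 to 0.07 among 12786 genes with at least 40 reads. Counting error was left out of the distances. In CM versus IM the interval of the log2 ratio was -2.51 to 0.17 for DIO2 and -3.03 to -0.82 for DIO3. Which genes are nearest to DIO2 and DIO3 is therefore uncertain. Nearest to THRA were GLG1, PHB2, LIMS2, CHD3 and TSC2, at distances from 0.02 to 0.03 among 1219 genes with at least 6002 reads. DIO1 was left out because of its listing at 0.

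The other genes of the pathway were taken from 8 lists, and 99 of their 122 symbols were found as mRNA genes. In CM versus IM, 9 of 77 such genes above the minimum were called, 5 higher and 4 lower, which is 11.7% beside 18.8% of all genes. In CMT versus CM 13 of 77 were called, 3 higher and 10 lower, or 16.9% beside 19.5%. CMT versus IM had 15 of 76, 5 higher and 10 lower, or 19.7% beside 20.7%. Their median log2 ratios were -0.04, -0.04 and -0.13, beside -0.06, -0.02 and -0.08 over all genes.

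Transporters bring the hormone into the cell. Of 7 that were above the minimum, 1 was called in CM versus IM, or 14.3% beside 18.8% of all genes. None was called in CMT versus CM, beside 19.5%, and 2 were in CMT versus IM, or 28.6% beside 20.7%. With so few genes nothing is read from these counts. SLC16A10, which carries aromatic amino acids and thyroid hormone, had 41.4, 28.6 and 35.3 UQRPKM. SLC7A8, an amino acid exchanger deposited as LOC100522330, had 23.8, 14.1 and 19.7 UQRPKM, and the log2 ratio of CM to IM was -0.76 (95% interval -1.20 to -0.33). SLCO3A1 had 65.9, 44.9 and 39.5 UQRPKM, and its log2 ratio in CMT versus IM was -0.74 (-1.02 to -0.45).

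Among the carriers, transthyretin (TTR) and albumin are liver products that are also on the liver list. TTR had 5, 530 and 4 reads in IM, CM and CMT. CRYM, a cytosolic protein that binds triiodothyronine, is not on the liver list. It had 27.2 UQRPKM in IM (53 reads), 56.0 in CM (104 reads) and 15.7 in CMT (30 reads). Its log2 ratio was 1.04 in CM versus IM (95% interval 0.55 to 1.55) and -1.83 in CMT versus CM (-2.47 to -1.24). In CMT versus IM the log2 ratio of CRYM was -0.79 (-1.49 to -0.12). CM was the high library for CRYM as for DIO1, and the part of liver RNA in the CRYM value was not tested.

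Of 15 receptor partners and cofactors above the minimum, 1 was called for CM over IM, or 6.67% beside 18.8% of all genes. The same gene was called for CMT over CM, or 6.67% beside 19.5%, and none was for CMT over IM, beside 20.7%. The called gene was CREBBP, a histone acetyltransferase and coactivator. It had 20.0 UQRPKM in IM (155 reads), 5.81 in CM (43 reads) and 19.2 in CMT (146 reads), with log2 ratios of -1.78 (95% interval -2.30 to -1.28) for CM over IM and 1.72 (1.22 to 2.25) for CMT over CM. EP300, its close relative, had 246, 210 and 207 UQRPKM, and its log2 ratio of -0.23 in CM versus IM was below the fold limit but had an interval that left out 0 (-0.31 to -0.15). The dimer partner RXRG had 484, 471 and 378 UQRPKM and RXRB 210, 190 and 208. The corepressor NCOR1, deposited as LOC100628075, had 163, 140 and 166 UQRPKM.

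None of the 7 genes of deiodinase turnover was called in any comparison, beside 18.8%, 19.5% and 20.7% of all genes, and with so few genes nothing is read from that count. WSB1, the ubiquitin ligase adaptor that marks DIO2 for degradation, had 736, 809 and 579 UQRPKM, and USP33, which removes that mark, had 27.4, 37.4 and 28.1. Of 6 genes of the selenocysteine machinery above the minimum in CMT versus IM, 1 was called, or 16.7% beside 20.7% of all genes. It was PSTK, the kinase that acts on the charged tRNA, with 20.8, 23.6 and 34.5 UQRPKM. None of the list was called in CM versus IM or CMT versus CM, beside 18.8% and 19.5%. SECISBP2, which binds the selenocysteine element of the mRNA, had 268, 291 and 216 UQRPKM. Of 17 other selenoprotein genes above the minimum in CM versus IM, GPX3 and SELV were called, both lower, or 11.8% beside 18.8% of all genes. SELV rested on 8 and 3 reads. In CMT versus CM 5.88% were called beside 19.5%, and in CMT versus IM 11.8% beside 20.7%. GPX6, with 0, 17 and 0 reads in IM, CM and CMT, and GPX2, with 3, 0 and 1, were below the minimum and not counted. GPX3, the secreted glutathione peroxidase, had 26408 UQRPKM in IM against 11852 in CM and 17380 in CMT, and the log2 ratio of CM to IM was -1.16 (95% interval -1.18 to -1.13).

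More of the genes known to respond to thyroid hormone were called in the comparisons with CMT than in CM versus IM, a difference that was not tested. In CM versus IM, 2 of 17 were called, or 11.8% beside 18.8% of all genes, both higher. They were CYP7A1 and SLC2A4, the insulin-dependent glucose transporter, which had 161 UQRPKM in IM against 268 in CM and 120 in CMT. In CMT versus CM, 7 of 18 were called, 2 higher and 5 lower, or 38.9% beside 19.5% of all genes. CMT versus IM had 7 of 17, again 2 higher and 5 lower, or 41.2% beside 20.7%. THRSP, a regulator of lipid synthesis that is induced by the hormone, had 5704 UQRPKM in IM against 5330 in CM and 2896 in CMT, so that the log2 ratio of CMT to CM was -0.88 (95% interval -0.93 to -0.83). ACACA, the first enzyme of fatty acid synthesis, had 1507, 1467 and 962 UQRPKM, and UCP3 had 1941, 2332 and 1240. KLF9, a direct target of the receptors, had 418, 393 and 633 UQRPKM, a log2 ratio of 0.69 (0.51 to 0.87) in CMT versus CM. ATP2A1, the calcium pump of fast muscle, had 7, 6 and 603 reads and is also on the muscle list, whose summed level was 82.7 UQRPKM in IM against 68.8 in CM and 6152 in CMT. Adipocyte markers summed to 141786, 133494 and 111779 UQRPKM, with none of 8 highest in CMT. Mesothelial markers summed to 154, 267 and 689 UQRPKM, with 5 of 8 highest in CMT. The part of these other cell types in the CMT values, those of DIO2 and DIO3 included, was not tested.

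**Figure D4:**
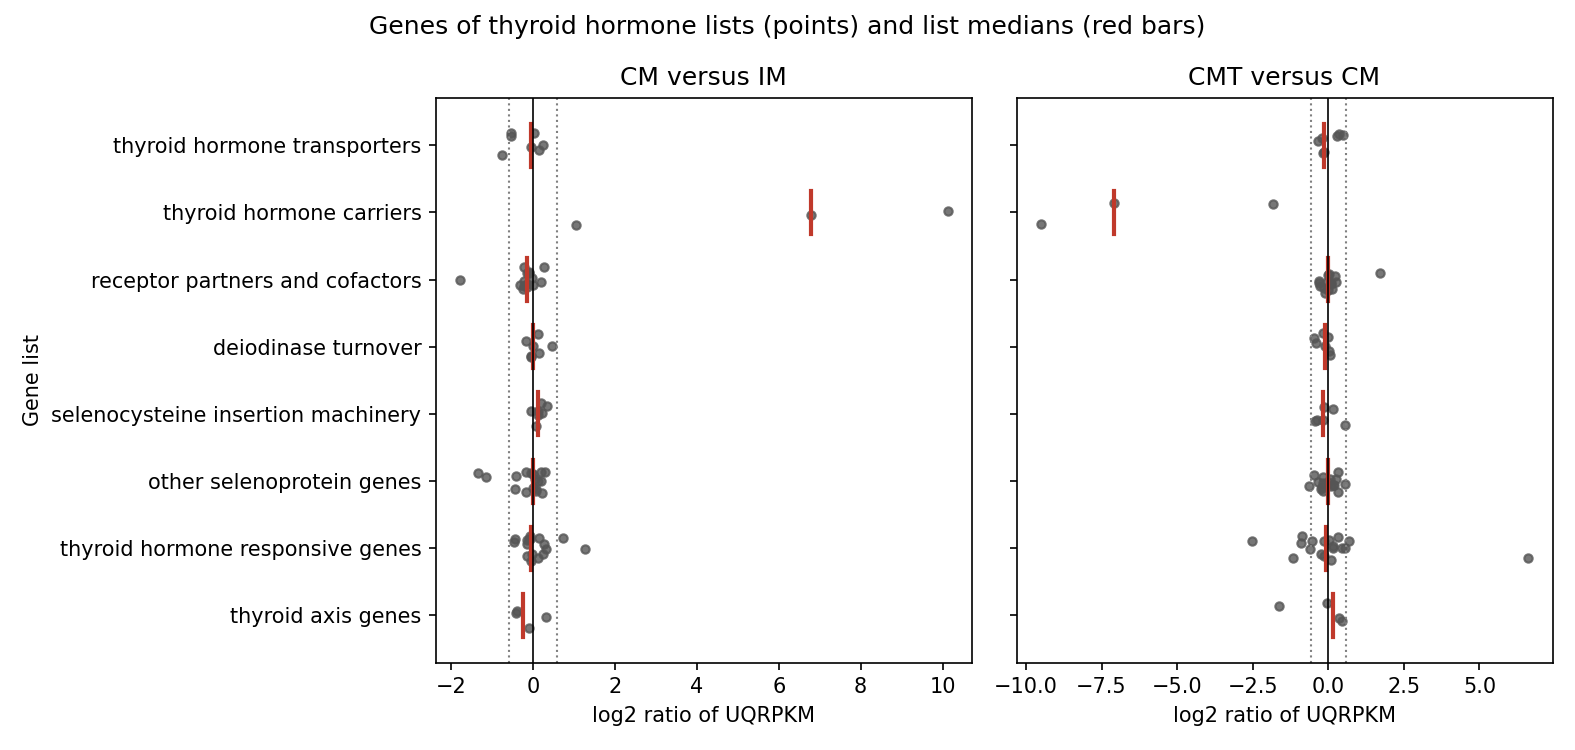
Log2 ratios of UQRPKM of the genes in 8 thyroid hormone lists, in CM versus IM (left) and CMT versus CM (right), with 1 point per gene with at least 1 UQRPKM in both libraries, red bars at list medians and dotted lines at a 1.5-fold difference. Most points lie between the dotted lines. The carriers stand apart through TTR and ALB, and the point at 6.61 in CMT versus CM is ATP2A1.

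In brown fat, thyroid hormone and DIO2 serve heat production, and the markers of brown or beige fat cells other than DIO2 ranged from listed at 0 to high. COX7A1, a subunit of cytochrome c oxidase, had 2867 UQRPKM in IM (1401 reads), 2287 in CM (1065 reads) and 2725 in CMT (1305 reads). PRDM16, a transcription regulator of the brown fat cell, had 4.79, 6.58 and 4.51 UQRPKM. CIDEA and ELOVL3 were listed at 0 in every library, and UCP1, deposited as an ncRNA, had 1 read in IM and none in the other libraries. Of the thyroid axis genes, the receptor of thyrotropin (TSHR) was listed at 0 throughout. IYD, which salvages iodide from iodotyrosines, had 29.6 UQRPKM in IM (29 reads), 22.5 in CM (21 reads) and 7.29 in CMT (7 reads), and the log2 ratio of CMT to CM was -1.63 (95% interval -3.10 to -0.34).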

How the data were processed

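RNA-Seq libraries of 3 RNA pools (IM, CM and CMT, 1 library per group, assigned by sample title) were analysed. The authors filtered the Ion Proton reads, mapped them to Sscrofa 10.2 with MapSplice and deposited 1 RPKM value per gene, scaled by the library's upper quartile (UQRPKM). The counting tool, annotation and use of strand are not given in the sources used here, and gene positions are not given because the values carry no coordinates.

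Reads were recovered from UQRPKM as the smallest whole numbers that fitted all libraries at a shared gene length of up to 120000 bases. The upper quartiles used in the fit were 149, 142 and 146 for IM, CM and CMT. They are whole numbers fitted to the most frequent ratio of low values between libraries, not observed quartiles. All 20838 genes above 0 could be fitted, with a largest relative error of 7.65e-09, and reads with a common factor can be underestimated. The recovered length of DIO1 was 779 bases, of DIO2 839, of DIO3 2108 and of THRA 1177. Log2 ratios were taken without a pseudocount. Intervals (95%) are exact Poisson for levels and exact Clopper-Pearson for ratios, computed with SciPy 1.17.1 in Python 3.11.15, and a count of 0 was set at 3 reads. The steps were tested on simulated data.

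The members and lists were chosen with earlier results of these data known, and no test was run. Named were the members, genes of the lists and the 5 genes nearest to each member in log2 ratio. Symbols absent from the values were matched through RefSeq gene numbers. Alternatives were other scalings, pseudocounts, fold limits and filters. No sequence of the transcripts or proteins was used here. Some genes of the lists are counted in them but not reported here by name.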

Additional observations from a re-analysis of the deposited data

How the results depend on the processing

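Each of the 11 log2 ratios of the members was computed under 5 alternatives, and in none of the 55 did the direction turn. In 54 the value stayed inside the 95% counting interval. The intervals of the deiodinases were far wider than the shifts from scaling, so the scalings could not have left them. That of DIO1 in CMT versus CM has no lower limit. Scaling by total recovered mRNA reads put the log2 ratio of THRA in CMT versus IM at -0.022, outside its interval, and that scaling moved all genes of the comparison by 0.11. A pseudocount of 1 UQRPKM put DIO3 in CMT versus IM at 0.58, under the 1.5-fold limit, which was the only call of a member that changed. For DIO1 in CMT versus CM, given at the level of 3 reads as -2.54, the pseudocounts gave -4.03 and -5.17. No value was computed for DIO1 in CMT versus IM. A limit of 2-fold left 1139, 1225 and 1162 mRNA genes called in the comparisons of CM with IM, CMT with CM and CMT with IM, and the requirement on the counting interval left 1656, 1748 and 1906, in place of 2657, 2749 and 2936. No paired analysis was possible because each group is 1 library, and for the same reason no library could be left out. Depth limits the deiodinases, which had at most 57 reads in a library.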
